A study of Mus musculus with 4 samples.

Results

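The genes that sense nucleic acids upstream of interferon were followed in white fat of mice that overexpress mitochondrial ferritin. The list named 10 genes (DDX58, IFIH1, DHX58, TLR3, TLR7, TLR9, TMEM173, ZBP1, AIM2 and TREX1), and their rows were chosen by name: a row was taken where its name equals a gene symbol or 1 of a few older names. That rule found 13 of the 45281 probes on the array, for 9 of the 10 genes. Dhx58 had no row under the listed names, but RefSeq gives D11LGP2E as a synonym of it, and 4 probes carry that name. A further Ddx58 probe is listed under another RefSeq synonym. These 5 probes were added after the values had been seen, and counts are given with and without them.

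Cells recognise foreign or misplaced nucleic acids through several receptor families. RIG-I-like receptors bind RNA in the cytosol and signal through the mitochondrial adaptor MAVS. Toll-like receptors of the endosome bind RNA or DNA taken up from outside and signal through MyD88 or TRIF, while cytosolic DNA is read by cGAS with STING, by AIM2 and by ZBP1. The routes through MAVS, MyD88, TRIF and STING lead to interferon regulatory factors and type I interferon genes. Several of the sensors are themselves induced by interferon. In adipose tissue such receptors are carried by adipocytes and by resident immune cells, macrophages among them.

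The WT group was wild-type mice, and the other group, FtMT-Adip, carried a transgene for mitochondrial ferritin, an iron-storing protein of the mitochondrial matrix, restricted to fat. Both groups are labelled C57BL/6 and 8 to 12 weeks of age, and both ate a high-fat diet with doxycycline (Dox-HFD) for 3 weeks before subcutaneous white fat was taken. The promoter that drives the transgene is not given in the labels, nor is it stated whether RNA of 1 animal or of several was placed on an array. There were 2 arrays in each group, so p-values measure the spread between these arrays, which may be technical, and the number of arrays limits the precision.

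The arrays were alike in overall signal, with medians of 116.5 to 119 before normalization. A probe counted as above background on an array where fewer than 5% of probes for olfactory and vomeronasal receptors were as bright, a limit of 119.6 to 123.5. Probes above it on at least 2 arrays were tested, 20762 in all. Changes are differences of normalized log2 signal, FtMT-Adip minus WT, from limma, and a probe is called at a Benjamini-Hochberg adjusted p under 0.05 over all tested probes. All 12 adipocyte markers were above background on at least 2 arrays, which bears on the tissue label, though the probes of Fabp4 and Retn were below background on both FtMT-Adip arrays. Since whole tissue was used, fewer cells of a type and less RNA per cell cannot be told apart.

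Of the 13 probes chosen by the rule, 9 were tested, for 7 genes. In limma 3 of these were called higher, for Tlr7 and Trex1 (2 probes), against 3.21% of all tested probes called higher and 7.35% called in either direction. None was called lower (0 probes), against 4.14% of all tested probes. At an unadjusted p under 0.05 by limma 0 were lower and 5 higher. Such a p is common here, held by 4439 of the 20762 tested probes in either direction. With the 5 added probes, 6 of 12 tested probes were called higher, for Tlr7, Trex1 and Dhx58. At an unadjusted p under 0.05 by limma 8 of the 12 were higher and 0 lower. The median log2 change was 0.25 over the 9 tested probes and 0.63 over the 12, beside 0.00 over all tested probes. Only those above background enter these figures, and Tlr3 entered through its FtMT-Adip arrays alone. The arrays of the groups did not overlap, with FtMT-Adip above WT, for 7 of the 9 probes, against 25.6% of all tested probes, and WT was above FtMT-Adip for 0 of the 9, against 25.9%. The log2 change was above 0 for 8 of the 9 probes, against 50.9% of all tested probes. Tlr3, which the filter let in through its FtMT-Adip arrays alone, is among the 7, the 8 and the 5 at an unadjusted p under 0.05 by limma. With the 5 added probes, FtMT-Adip lay above WT without overlap for 10 of the 12 and WT above FtMT-Adip for 0. The log2 change was then above 0 for 11 of the 12. On the same arrays 10 of 14 macrophage markers were called higher, against 3.21% of all tested probes. Of 12 adipocyte markers 8 were called lower, against 4.14%. Values are given beside the marker lists, and the part of these cell types in the results was not tested.

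**Figure D1:**
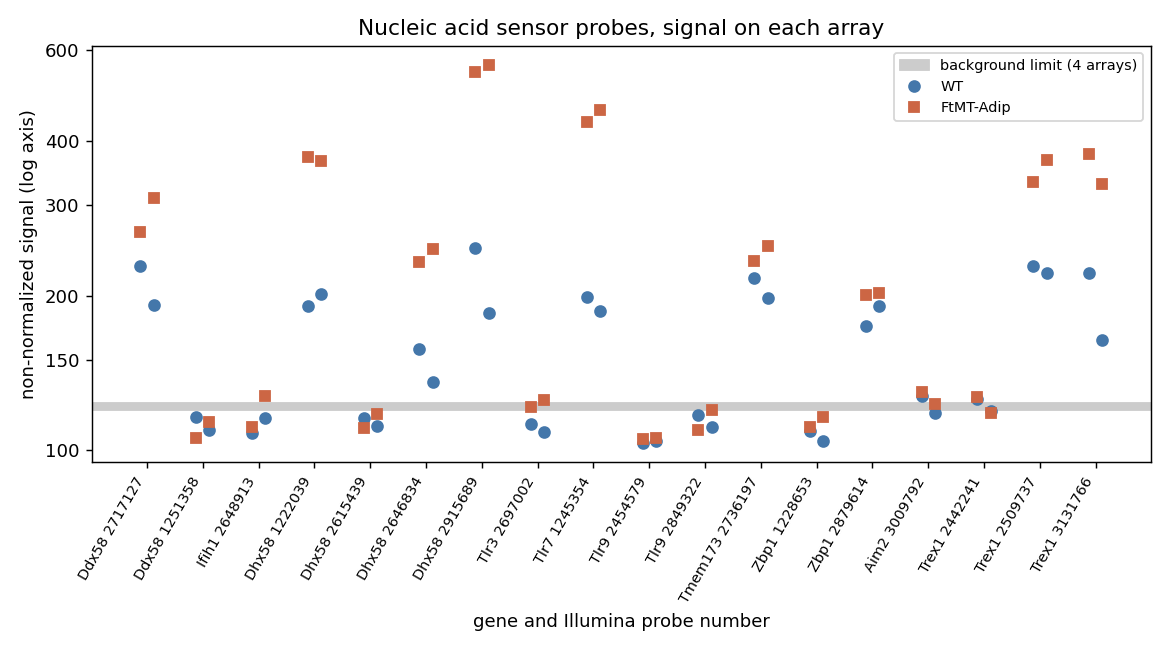
Non-normalized signal (log axis) of all 18 sensor probes on the 2 WT arrays (circles) and the 2 FtMT-Adip arrays (squares), with replicate 1 left and replicate 2 right. The grey band spans the background limits of the 4 arrays, 119.6 to 123.5. The Tlr7 probe, 3 Dhx58 probes and 2 Trex1 probes have both squares well above both circles, while all 4 points of Tlr9 ILMN_2454579 lie under the band.

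Among the RIG-I-like receptors, Dhx58 rose and Ddx58 did not pass the test. Dhx58 encodes LGP2, which lacks the signalling domains of its relatives and modulates them. Its probe ILMN_2915689 read 247.7 and 184.9 on the WT arrays, against 545.9 and 562.6 on those of FtMT-Adip. Both FtMT-Adip arrays thus lay at more than double the signal of either WT array. The log2 change was 1.58 (SE 0.186, 2.99-fold, adjusted p = 0.00223 by limma), the 143rd smallest p among the tested probes. Probe ILMN_1222039 of the same gene read 191 and 201.6 on the WT arrays, against 373.1 and 365.5 on those of FtMT-Adip (log2 change 1.08, SE 0.152, adjusted p = 0.00451 by limma). ILMN_2646834 read 157.7 and 135.9 on the WT arrays, against 232.7 and 246.4 on those of FtMT-Adip (log2 change 0.93, SE 0.145, adjusted p = 0.00693 by limma). The fourth Dhx58 probe, ILMN_2615439, stayed below background on every array, between 110.3 and 117.6, and was not tested. So 3 of 4 Dhx58 probes were called, all upward, and why the fourth was dim was not examined.

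Ddx58 encodes RIG-I, the cytosolic receptor for RNA with a 5′ triphosphate. Its probe ILMN_2717127 read 228.6 and 192.2 on the WT arrays, against 266.5 and 309.2 on those of FtMT-Adip. Both FtMT-Adip arrays were higher than both WT arrays, by less than for Dhx58. The log2 change was 0.53 (SE 0.159, 95% interval 0.17 to 0.89), with an adjusted p of 0.0853 by limma, which misses the threshold. The other Ddx58 probe, ILMN_1251358, was below background on every array at 105.6 to 115.9. Ifih1 encodes MDA5, the receptor for long double-stranded RNA. It read 108.3 and 115.5 on the WT arrays, against 111.1 and 127.8 on those of FtMT-Adip, above background on FtMT-Adip 2 alone, and was not tested. A level of Ifih1 in this tissue cannot be given from that probe (ILMN_2648913).

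Promoters of these genes are shown because interferon acts on many of its targets through a short element near the start site, the interferon-stimulated response element. The RefSeq promoter table (GRCm38.p6) matched 6 of the 10 genes, Ddx58, Ifih1, Tlr3, Tlr9, Aim2 and Trex1, so that of the 3 genes with called probes Trex1 alone could be examined. Each window of 300 bases runs from 250 before the annotated start to 50 after it. Both strands were searched for the core of that element, GAAA followed by any 2 bases and GAAA again, and for TTCNNNGAA, the gamma-activated site. The first is held by 3.44% of all 32851 promoter windows and the second by 8.3%. The core was matched in the windows of Ddx58 and Ifih1, once in each, and TTCNNNGAA in none of the windows of the 6 genes (0 matches). The match, in capitals below, starts 2 bases after the annotated start of Ddx58 (on the opposite strand) and 32 bases after that of Ifih1. Their windows were chosen for printing after the match was seen. Both genes read along the minus strand, at chr4:40239776-40240075 and chr2:62646206-62646505.
Ddx58: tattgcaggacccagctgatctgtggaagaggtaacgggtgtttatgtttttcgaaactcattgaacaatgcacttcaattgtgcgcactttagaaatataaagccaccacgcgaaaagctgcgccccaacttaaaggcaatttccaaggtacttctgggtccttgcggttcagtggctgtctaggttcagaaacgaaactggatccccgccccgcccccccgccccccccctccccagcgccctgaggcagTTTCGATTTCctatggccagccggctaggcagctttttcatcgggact
Ifih1: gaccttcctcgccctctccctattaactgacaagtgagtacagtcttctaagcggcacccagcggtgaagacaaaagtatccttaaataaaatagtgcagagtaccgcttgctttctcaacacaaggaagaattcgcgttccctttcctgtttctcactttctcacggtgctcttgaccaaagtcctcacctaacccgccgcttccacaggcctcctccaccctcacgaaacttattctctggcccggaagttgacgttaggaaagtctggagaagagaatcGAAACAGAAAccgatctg
A match of letters is a description and does not show that a factor binds there. The probes of the 2 genes that hold it were not called, or not tested.

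Of the Toll-like receptors among the 10 genes, Tlr7 rose, and Tlr3 and Tlr9 were at or below background. Tlr7, a receptor for single-stranded RNA, read 198.5 and 186.7 on the WT arrays, against 436 and 458.6 on those of FtMT-Adip (probe ILMN_1245354). The replicates of each group were close, and the groups lay far apart. On the normalized log2 scale the WT mean was 7.20 ± 0.05 (SD, n = 2) and the FtMT-Adip mean 8.63 ± 0.03 (SD, n = 2), a log2 change of 1.43 (SE 0.145, 2.69-fold, adjusted p = 0.00119 by limma). It had the 78th smallest p of all tested probes, the smallest among the sensor probes.

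Tlr3, which binds double-stranded RNA, read 112.5 and 108.8 in WT, below background on both arrays, and 121.4 and 125.3 in FtMT-Adip, just above it on both. No minimum rise is given, since Tlr3 was tested through its FtMT-Adip arrays alone and those lay close to the limit. The fitted log2 change of 0.25 had an adjusted p of 0.11 by limma (ILMN_2697002). Tlr9, the receptor for unmethylated CpG DNA, was not above background on any array by either probe. Signals were 103.2 to 105.9 for ILMN_2454579 and 109.7 to 119.8 for ILMN_2849322.

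**Figure D2:**
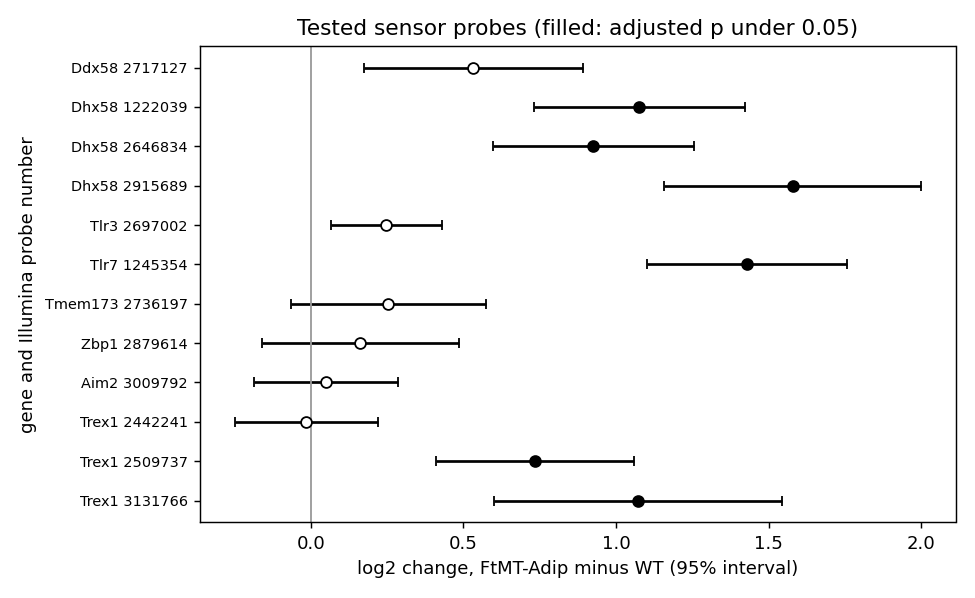
Log2 change, FtMT-Adip minus WT, of the 12 tested sensor probes with its 95% interval from limma. Filled points are the 6 called probes of Dhx58, Tlr7 and Trex1, from 0.73 to 1.58, and open points did not pass the threshold.

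Sensors of DNA in the cytosol showed no call (0 called, and 0 at an unadjusted p under 0.05 by limma, over the tested probes of Tmem173, Zbp1 and Aim2). Tmem173, now Sting1, encodes STING, the adaptor that is switched on by the second messenger of cGAS. It read 216.3 and 197.6 on the WT arrays, against 233.3 and 250.4 on those of FtMT-Adip (ILMN_2736197), so the groups did not overlap. The log2 change was 0.25 (95% interval -0.07 to 0.57, adjusted p = 0.35 by limma). The interval includes 0.

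Zbp1 encodes a sensor of Z-form nucleic acids that can start necroptosis. Its brighter probe ILMN_2879614 read 174.7 and 190.6 on the WT arrays, against 200.8 and 202.5 on those of FtMT-Adip, a log2 change of 0.16 (95% interval -0.16 to 0.48, adjusted p = 0.58 by limma). The other, ILMN_1228653, was below background throughout, at 104.1 to 116.2. Aim2, which forms an inflammasome on double-stranded DNA, lay at the background limit, with 127.6 and 118.1 on the WT arrays, against 129.9 and 123 on those of FtMT-Adip (ILMN_3009792). A single array of each group exceeded the limit, and the log2 change was 0.05 (95% interval -0.19 to 0.29, adjusted p = 0.842 by limma).

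Trex1, the exonuclease that degrades cytosolic DNA and so limits cGAS and STING, rose by 2 of its 3 probes. ILMN_3131766 read 221.7 and 163.6 on the WT arrays, against 378.1 and 329.3 on those of FtMT-Adip. The log2 change was 1.07 (SE 0.208, 2.1-fold, adjusted p = 0.0168 by limma). ILMN_2509737 read 228.5 and 221 on the WT arrays, against 333.3 and 366.6 on those of FtMT-Adip (log2 change 0.73, SE 0.143, adjusted p = 0.0173 by limma). By both probes every FtMT-Adip array was above every WT array. The third probe, ILMN_2442241, lay at the background limit with 125.7 and 119.2 on the WT arrays, against 127 and 118 on those of FtMT-Adip, and a log2 change of -0.02 (adjusted p = 0.955 by limma).
Neither called probe of Trex1 kept its call throughout. The log2 change of ILMN_2509737 was 0.71 to 0.76 when any 1 array was left out, with the call lost each time (adjusted p = 0.0553 without WT 2 to 0.0771 without FtMT-Adip 1, by limma). That of ILMN_3131766 was 0.81 without WT 2 (adjusted p = 0.0627) and 0.90 without FtMT-Adip 1 (adjusted p = 0.0774), also not called by limma. By contrast, Tlr7 and the 3 Dhx58 probes stayed called whichever array was left out, at 1.40 to 1.46 for Tlr7 and 1.34 to 1.81 for ILMN_2915689.

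Trex1 is the called gene whose promoter could be read. RefSeq gives 2 start sites, and neither window held a match to the response element core or to TTCNNNGAA (0 matches). The window of the upstream start, on the minus strand at chr9:109059674-109059973, is printed in lower case throughout for that reason, for comparison with those of Ddx58 and Ifih1 above.
Trex1: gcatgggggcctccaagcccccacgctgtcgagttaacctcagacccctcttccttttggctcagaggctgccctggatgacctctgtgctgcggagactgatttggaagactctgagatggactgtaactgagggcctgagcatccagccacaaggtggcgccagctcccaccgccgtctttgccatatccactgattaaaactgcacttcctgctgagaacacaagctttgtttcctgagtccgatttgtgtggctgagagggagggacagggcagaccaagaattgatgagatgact
The absence of a match says only that these letters are not in the window.

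In the authors' deposited table, the ratio of FtMT-Adip over WT was 3.31 for Tlr7 (p = 0.0315), 2.27 for Trex1 ILMN_3131766 (p = 0.0405) and 1.43 for Trex1 ILMN_2509737 (p = 0.118), none of them adjusted. For the called Dhx58 probes the authors' deposited table gives ratios of 2.14 (p = 0.015), 2.38 (p = 0.0655) and 2.46 (p = 0.0335). Ddx58 ILMN_2717127 stood at 1.46 (p = 0.14) in the authors' deposited table. In all, 4 of the 18 sensor probes have a p under 0.05 there, for Tlr7, Trex1 and Dhx58, and 2 of the 13 chosen by the rule. The share of all probes with such a p was not computed, so these counts stand without a comparison.

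**Figure D3:**
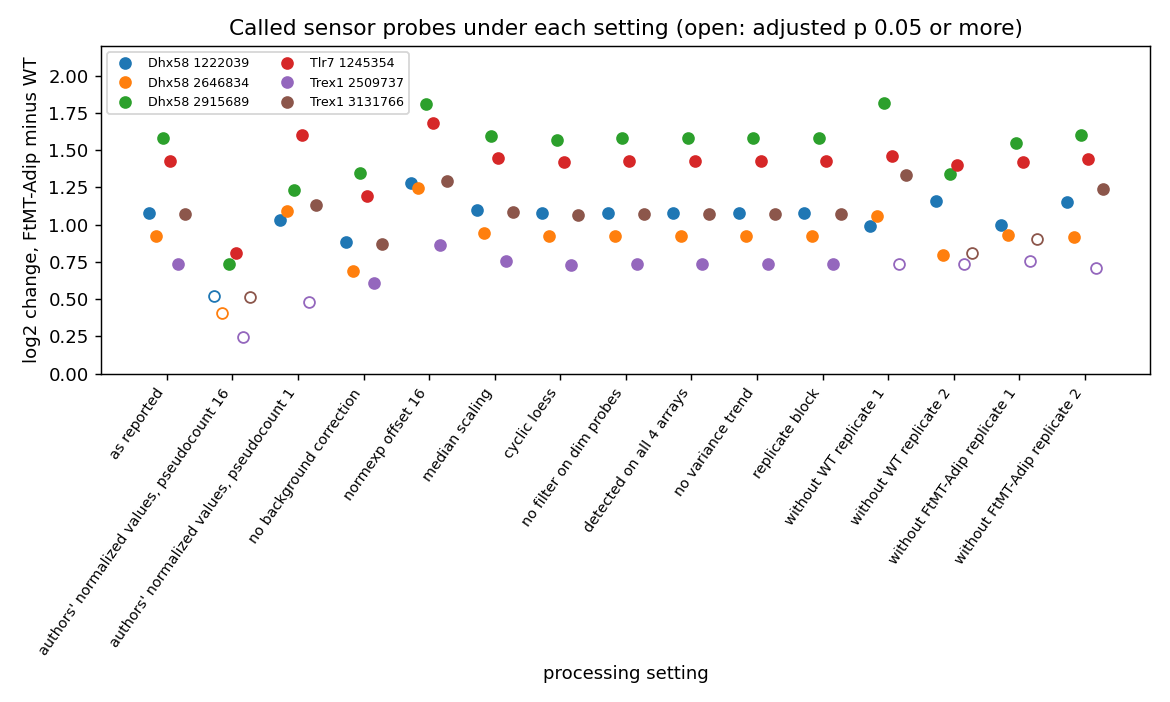
Log2 change of the 6 called sensor probes as reported and under each of the 14 alternatives, filled where the adjusted p is under 0.05. Tlr7 and Dhx58 ILMN_2915689 are filled in every column, and Trex1 ILMN_2509737 is open in 6 of the alternatives.

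Other sensors and the proteins that serve them rose in part. Of 22 tested genes of that list 7 were called higher and 0 lower by limma, against 3.21% and 4.14% of all tested probes. At an unadjusted p under 0.05 by limma 12 were higher and 0 lower, where 4439 of 20762 tested probes passed in either direction. The median log2 change was 0.35. Tlr13, a mouse receptor for bacterial ribosomal RNA, read 169.2 and 181.3 on the WT arrays, against 538.8 and 490.2 on those of FtMT-Adip (log2 change 1.83, SE 0.162, adjusted p = 0.000731 by limma). Ifi205, of the AIM2-like family, had a log2 change of 1.36 (SE 0.175), with 5 of its 6 tested probes called. It has close relatives that may share a probe. Unc93b1, which carries Toll-like receptors to the endosome, had 0.99 (SE 0.239, adjusted p = 0.0402 by limma), with 1 of 2 probes called. That call was lost without WT 1 (0.96), WT 2 (1.00) or FtMT-Adip 1 (0.60). Cd14, a co-receptor also used as a macrophage marker, had 0.97 (SE 0.189, adjusted p = 0.0176 by limma), a call lost without WT 2 or FtMT-Adip 1.

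The remaining called members, named after their values were seen, were Trim25, Tlr8 and Rnaseh2b. Trim25, a ubiquitin ligase that activates RIG-I, had a log2 change of 0.94 (SE 0.162), with 1 of 2 probes called. Tlr8, related to Tlr7, had 0.91 (SE 0.159), above background on 1 of 2 WT arrays. Both calls were lost in the authors' normalized values with pseudocounts of 16 and 1 (adjusted p = 0.138 and 0.132 for Trim25, 0.159 and 0.152 for Tlr8, by limma). Rnaseh2b, a subunit of the ribonuclease that removes RNA from DNA, had 0.58 (SE 0.146) with 1 of 2 probes called, a call lost when any 1 array was left out. It was also lost in the authors' normalized values with pseudocounts of 16 and 1 (adjusted p = 0.466 and 0.469 by limma). Cgas, the DNA sensor upstream of STING, lay near background with 130.9 and 117 on the WT arrays, against 124.9 and 128.5 on those of FtMT-Adip, a log2 change of 0.04 (adjusted p = 0.887 by limma). The number of called members fell to 4 without WT 2 and to 4 without FtMT-Adip 1.

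Signal transducers below the sensors mostly did not pass. Of 22 tested adaptors, kinases and interferon regulatory factors 3 were called higher and 0 lower by limma, against 3.21% and 4.14% of all tested probes. The median log2 change was 0.15. At an unadjusted p under 0.05 by limma 6 were higher and 0 lower, where 4439 of 20762 tested probes passed in either direction. Irf7, the factor that drives type I interferon genes and is itself induced by interferon, read 176.4 and 172.4 on the WT arrays, against 443 and 493.2 on those of FtMT-Adip. Its log2 change was 1.69 (SE 0.143, 3.23-fold, adjusted p = 0.000678 by limma), and it stayed called whichever array was left out. Casp1, the inflammasome protease, had 0.69 (SE 0.174, adjusted p = 0.0471 by limma) and Irf5 0.67 (SE 0.17, adjusted p = 0.0491 by limma). Those calls were lost without WT 1, WT 2 or FtMT-Adip 1, for Irf5 also without FtMT-Adip 2. Both were lost with the replicate number as a block, leaving a count of 1, and with no filter on dim probes. In the authors' normalized values with pseudocounts of 16 and 1 both were lost too. The adjusted p there was 0.21 and 0.195 for Casp1, 0.574 and 0.584 for Irf5, by limma.

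Among the interferon genes themselves many were dim. Of 22 listed ligands, receptors and transducers 15 were tested. Probes of Ifnb1, Ifna2, Ifna4, Ifna5, Ifnk and Ifnar1 were not above background on any array, and Ifnb1 read 103.2 and 108.8 on the WT arrays, against 103 and 109.7 on those of FtMT-Adip. Ifng exceeded the limit on 1 WT array. Ifnab was above background on all 4 arrays, with 215.3 and 213.6 on the WT arrays, against 232.1 and 222.1 on those of FtMT-Adip (log2 change 0.08, adjusted p = 0.819 by limma). Ifna1 read 124.8 and 118.1 on the WT arrays, against 147.9 and 141 on those of FtMT-Adip, without overlap (log2 change 0.37, adjusted p = 0.0784 by limma). Ifne was above background on all 4 arrays, at 122.7 to 126.3. By limma 2 members were called higher and 0 lower, against 3.21% and 4.14% of all tested probes, with a median log2 change of 0.15. At an unadjusted p under 0.05 by limma 5 were higher and 0 lower, where 4439 of 20762 tested probes passed in either direction. Usp18, a brake on interferon receptor signalling, read 470.5 and 353.4 on the WT arrays, against 949.2 and 1400.8 on those of FtMT-Adip, a log2 change of 1.61 (SE 0.208, adjusted p = 0.00328 by limma). Stat2, which carries the type I signal to the nucleus, had 0.89 (SE 0.143, adjusted p = 0.0079 by limma), a call lost in the authors' normalized values with pseudocounts of 16 and 1 (adjusted p = 0.146 and 0.124).

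Interferon-induced genes had the largest share of calls of the 4 lists. Of 23 tested genes 14 were called higher and 1 lower, with a median log2 change of 0.80, beside 3.21% higher and 4.14% lower over all tested probes. Oas3, 1 of the 14, was below background on both WT arrays and entered through its FtMT-Adip arrays alone. Where detection on all 4 arrays was required, 13 were called higher and the median was 0.92. Rsad2, which encodes viperin, had a log2 change of 2.10 (SE 0.153) and Oasl1, of the oligoadenylate synthetase family, 1.96 (SE 0.144). Ifit3 had 1.87 (SE 0.174) and Oas2 1.82 (SE 0.185), and all of them stayed called whichever array was left out. The member called lower, named after its value was seen, was Ifi27l2a, at -0.71 (SE 0.13, adjusted p = 0.0133 by limma). That call was lost in the authors' normalized values with either pseudocount (adjusted p = 0.199 and 0.202 by limma), which leaves 0 lower. Earlier results of these data were known when the lists were written, so the direction of these counts is no independent evidence. The 10 sensors were likewise chosen with earlier results known, which limits what their counts show beside those over all probes.

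**Figure D4:**
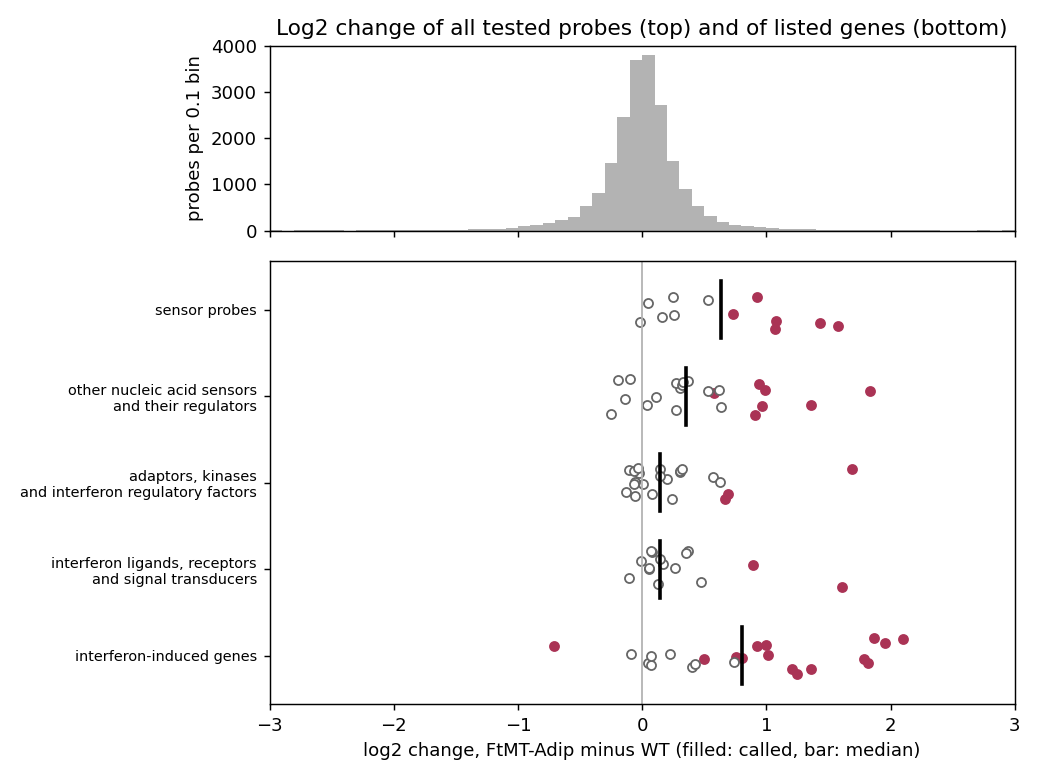
Top, the log2 change (FtMT-Adip minus WT) of all 20762 tested probes in bins of 0.1, the end bins holding all beyond. Bottom, the 12 tested sensor probes and the tested genes of 4 lists, filled where called, with the median as a bar. The median is 0.63 for the 12 sensor probes, which include probes added after their values were seen. It is 0.25 for the 9 chosen by the rule, and 0.80 for interferon-induced genes.

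Cell type markers moved in the same arrays. All 14 macrophage markers were tested and 10 of them called higher, against 3.21% of all tested probes, with a median log2 change of 1.01. Itgam, which was not called, was tested through its FtMT-Adip arrays alone. Their summed normalized signal was 11459 to 12252 in WT and 24288 to 29432 in FtMT-Adip, so the groups did not overlap. None of the macrophage markers was below background on all arrays. Of the 12 adipocyte markers 8 were called lower, against 4.14% of all tested probes, Fabp4 and Retn among them through their WT arrays alone. The 4 not called were Plin1 (log2 change -0.75), Slc2a4 (-0.40), Pnpla2 (-0.22) and Pparg (0.07). The sum was 104324 to 119653 in WT and 38853 to 54688 in FtMT-Adip. Endothelial markers had 4 of 8 called lower, against the same 4.14%, with sums of 7807 to 9342 in WT and 4549 to 5486 in FtMT-Adip.
Among cells that carry Tlr7 and Tlr9, plasmacytoid dendritic cell markers had sums of 2893 to 2946 in WT and 3307 to 3589 in FtMT-Adip. Here 2 of 6 tested markers were called higher, against 3.21% of all tested probes, Bst2, itself induced by interferon, and Cox6a2, also a muscle gene. Ccr9 was not above background on any array, and Siglech, a defining marker, had a log2 change of 0.29 (adjusted p = 0.296 by limma). The log2 changes of Cox6a2 and Bst2 were 2.51 and 1.01, while no other tested marker exceeded that of Siglech. Tcf4, the brightest of these markers, had -0.12, and the change was above 0 for 5 of the 6, against 50.9% of all tested probes. B cell markers had sums of 2063 to 2476 in WT and 2165 to 2702 in FtMT-Adip, with 0 of 7 called by limma (0 at an unadjusted p under 0.05) and Pax5 below background throughout. T and NK cell markers had 2294 to 3663 in WT and 2581 to 3679 in FtMT-Adip, with Ncr1 and Gzma below background. Conventional dendritic cell markers had 804 to 822 and 804 to 862, with Flt3 and Xcr1 below background. Neutrophil markers had 1099 to 1637 in WT and 548 to 619 in FtMT-Adip. Here 1 of 3 tested markers, S100a8, was called lower, against 4.14% of all tested probes. S100a9 was not called (log2 change -0.16), nor was Csf3r (0.24), with Mmp8, Retnlg, Ngp and Camp below background. Fibroblast markers had 17053 to 17470 in WT and 21405 to 26786 in FtMT-Adip. Here 1 of 8, Ly6a, was called higher, against 3.21% of all tested probes. Ly6a read 5442 and 4660 before normalization on the WT arrays, against 9907 and 8029 on those of FtMT-Adip. The other 7 were not called, with log2 changes of -0.07 for Pi16 and -0.34 for Pdgfrb. The rest of the 7 ran from 0.09 for Col3a1 to 0.60 for Pdgfra. The change was above 0 for 6 of the 8, against 50.9% of all tested probes. The part of these cell types in the changes of Tlr7, Trex1 and Dhx58 was not tested.

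**Figure D5:**
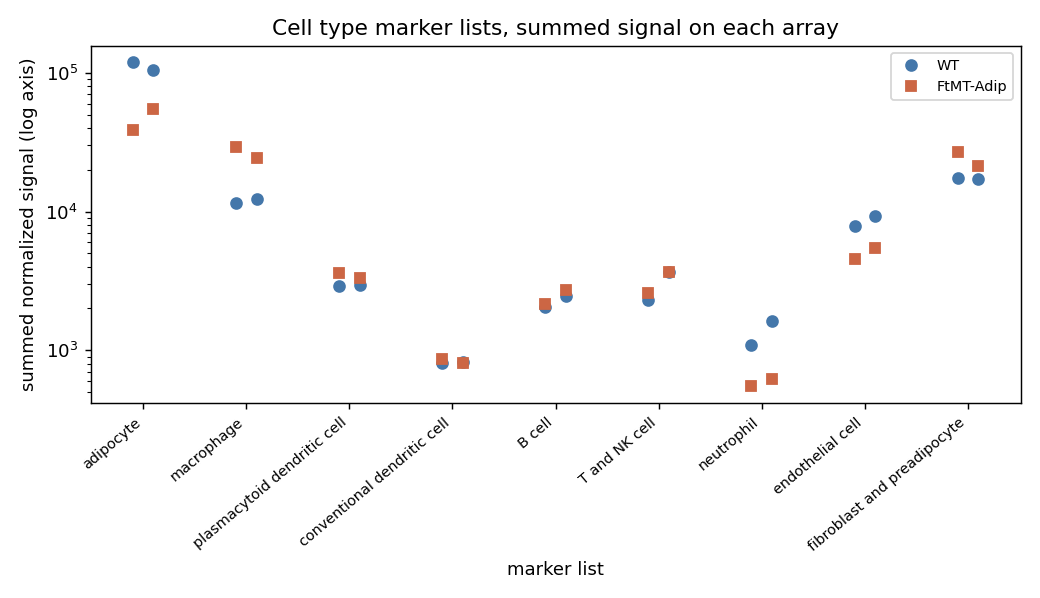
Summed normalized signal (log axis) of 9 cell type marker lists on the 2 WT (circles) and 2 FtMT-Adip (squares) arrays. The macrophage, plasmacytoid dendritic cell and fibroblast squares lie above the circles, and the adipocyte, neutrophil and endothelial squares below them. Among plasmacytoid dendritic cell markers Bst2, itself induced by interferon, and Cox6a2, also a muscle gene, were called higher, and Siglech was not.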

How the data were processed

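Biotin-labelled cDNA from 4 samples was hybridised to Illumina BeadChips, per the labels' protocols, whose chip name was not matched to the 45281 probes listed. The authors deposited a table of non-normalized intensity values, background not subtracted, and a table of intensity values that its title calls normalized, whose method is not given in the sources used here, and the series' value table equals the latter (largest difference 0). Beside those values the authors deposited, per the file headers, a ratio and an unadjusted p-value for every probe. Log10 copies of the signals (8 columns) were not used. The tables hold no detection p-values, so the planned fallback was taken: normexp background correction (offset 50), quantile normalization and the log2 scale, in limma 3.58.1 (R 4.3.3). Offsets and background shrink fold changes of dim probes. Background was judged against 1479 olfactory and vomeronasal receptor probes. The groups were compared by lmFit, then eBayes with a trend of variance on mean signal, two-sided, over 20762 probes tested on at least 2 arrays above background, with SE as the moderated standard error. The procedure was also run on simulated data, with changes set only in probes brighter than most sensor probes. That run therefore does not bear on dim probes.

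Names were matched to RefSeq (GRCm38.p6), 22864 by symbol and 11917 by synonym. The tables name no build, so the only coordinates printed are those of the RefSeq promoter windows. A gene on a list is represented by its brightest tested probe. The members, lists and rules were chosen with earlier results of these data known. All members were named. From each pathway list up to 4 called genes of largest change were named, further ones being marked as named after their values were seen. Sums over markers are of normalized signal on the linear scale. No scan dates or slides are given, so batches could not be examined. Replicate numbers come from the titles. The tables hold no probe sequences, so which transcripts a probe reads was not examined.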

Additional observations from a re-analysis of the deposited data

How the results depend on the processing

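Each result was recomputed under 14 alternatives. In the authors' normalized values with a pseudocount of 16, which is large beside their medians of 3.48 to 3.65, 610 probes were called (282 higher, 328 lower) in place of 1526 (667 and 859). In those values 1 sensor probe chosen by the rule was called in place of 3, and 2 in place of 6 with the added synonyms. With a pseudocount of 1 the authors' values gave 700 probes (322 higher, 378 lower). With 1 array left out, the number of called probes was 660 to 1583 (316 to 755 higher, 344 to 828 lower), called sensor probes numbered 1 to 2, or 4 to 5 with the synonyms, and called genes of the pathway lists 20 to 25 in place of 27. The authors' values (pseudocount 16) gave 4 called genes among the other sensors in place of 7, and 1 in place of 2 among ligands and receptors. Tlr7 and Dhx58 ILMN_2915689 were called under all 14 alternatives. Dhx58 ILMN_1222039 (adjusted p = 0.0584) and ILMN_2646834 (0.0505) were not called with the pseudocount of 16 in limma, nor was Trex1 ILMN_3131766 (0.0548). Trex1 ILMN_2509737 was not called with either pseudocount. Ddx58, Tmem173, Zbp1 and Tlr3 kept their sign and were not called in any alternative run, Tlr3 not being tested where detection on all 4 arrays was required.

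Probes at the background limit changed sign with the setting, and the cause was not tested. Aim2 had a log2 change of -0.016 and -0.053 in the authors' values with pseudocounts of 16 and 1, -0.028 without WT 2, -0.037 without FtMT-Adip 1, and up to 0.14 without FtMT-Adip 2. Trex1 ILMN_2442241 had 0.022 and 0.082 in the authors' values, 0.034 without WT 1, 0.092 without FtMT-Adip 2, and down to -0.12 without FtMT-Adip 1. The 2 arrays of a group share only replicate numbers with those of the other (correlation of same-numbered deviations -0.08 across probes). With the replicate block 1216 probes and 3 sensor probes, or 6 with the synonyms, were called. Signal limits what can be said of Ifih1, Tlr9, Tlr3 and Aim2, which lay at or under background.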
